A study of Caenorhabditis elegans with 2 samples.

Results

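The gene daf-19 (WBGene00000914) encodes the RFX-family transcription factor of Caenorhabditis elegans, and its locus held 1 of the 941 reproducible SYD-9-GFP regions of this data set. The gene lies on the minus strand of chromosome II, at chrII:10157520-10169346 in build ce11 (WBcel235), and spans 11827 bp. It is 1 of 19973 nuclear protein-coding genes, and the gene was chosen by the high score of its region in these lists. All regions were collected whose summit lay in the gene or within 5000 bp of it. Scores, ranks and distances of its regions are therefore given as a description, with no test.

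The data come from chromatin immunoprecipitation and sequencing of whole hermaphrodite late embryos of strain OP488, whose genotype is unc-119(tm4063) III; wgIs488. Their integrated transgene makes SYD-9 fused at the C-terminus to GFP and FLAG, and they were taken 4 h after synchronisation by egg bleaching. DNA bound to the tagged protein was recovered with an anti-GFP antibody, in 2 biological replicates of 1 group. No precipitation from worms without the tag and no input library was analysed here, so signal that needs SYD-9 and signal that the antibody or the chromatin gives without it cannot be told apart. The 4 lists used hold 10468 regions in replicate 1, 20425 in replicate 2, 13472 in the pooled data and 941 past the authors' irreproducible discovery rate (IDR) threshold. Each region carries the authors' score (the column for signal value), whose scale is not stated and which need not be the same in different lists. Read depth is unknown, and whole embryos mix all cell types, so the cells that gave a region's signal are not known.

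RFX factors bind the X-box, an inverted repeat found upstream of many genes for cilia. DAF-19 is known as the master regulator of ciliated sensory neurons in the worm: without it the cilia are lost, and worms enter the dauer larval state. Its isoforms share the DNA-binding domain and differ at the N-terminus. The long isoforms DAF-19A and DAF-19B are known from neurons without cilia, where they help to keep up the level of synaptic proteins, and the short DAF-19C drives cilium genes. SYD-9 has zinc fingers, and mutants are known for misplaced synaptic vesicle proteins.

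The annotation gives daf-19 5 transcripts, which share 7 coding exons. Transcripts a and b begin at 10169346 and 10169345 and have 2340 and 2415 coding bases. Transcript d begins 4894 bp further into the gene and has 1983 coding bases. Transcript e begins 5770 bp in, with 1914 coding bases and no annotated 5' UTR, and transcript c begins 7673 bp in, inside an intron of transcript a, with 1866 coding bases. A summit can thus be near the start of the long isoforms and several kilobases from the start of the short ones.

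The reproducible region lay just upstream of the long isoforms. It covered chrII:10169457-10169655, in the intergenic sequence between daf-19 and the gene gpd-4 on the opposite strand, and its summit was at 10169576. The sequence below is that of the whole region, read from the RefSeq WBcel235 genome on the minus strand, 5' to 3' in the direction of daf-19, with the 21 bases around the summit in capitals. The next line holds the bases between the region and the 5' end of transcript a, chrII:10169347-10169456, also on the minus strand, with a match to the X-box in capitals. Both are shown because the first holds the summit of the signal and the second a match to the X-box, the element RFX factors bind.
IDR region: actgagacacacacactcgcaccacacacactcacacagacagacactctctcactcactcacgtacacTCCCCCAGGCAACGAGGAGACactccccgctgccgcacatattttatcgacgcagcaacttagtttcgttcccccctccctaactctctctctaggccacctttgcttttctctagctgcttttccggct
From the region to the 5' end: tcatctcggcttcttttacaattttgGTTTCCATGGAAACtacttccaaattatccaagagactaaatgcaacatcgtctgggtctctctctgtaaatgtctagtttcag

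The X-box was searched as GTTNCC, 2 bases of any kind and GGNAAC, a pattern that reads the same on both strands. The match GTTTCCATGGAAAC, at chrII:10169417-10169430, is a perfect inverted repeat and lay 71 to 84 bp upstream of the 5' end of transcript a. It lay outside the pooled IDR region, 27 bp from its edge and 146 to 159 bp from the summit. Of the 19973 genes, 17 (0.0851%) had this pattern in the 300 bases upstream of their outermost 5' end, daf-19 among them. Of the 41 cilium genes described further on, 3 had it, and X-boxes in use are known to depart from the strict pattern at some bases. No match was found in daf-19 itself or in the 1000 bp upstream of the 5' ends of transcripts c, d and e. None of the 923 nuclear IDR summits had the pattern in a window of 199 bases around it, and 6 of 12531 windows around the other nuclear pooled summits had it. These are matches of letters, and the data hold no measurement of DAF-19 binding.

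The region itself was rich in cytosine on the strand of the gene, with runs of CA and of CT repeats. It had 40.2% C and 13.6% G on that strand, and 63.8% pyrimidines. Its G and C content of 53.8% was above that of 93.1% of the IDR regions, whose median was 44.1%. The word CTCTCT or its complement occurred 4 times in it and ACACAC or its complement 5 times, counting overlaps, and both words were picked after the sequence had been seen. Windows of 199 bases around nuclear IDR summits held CTCTCT in 39.1% of cases, against 18.7% around the other pooled summits and 17.4% of the 300 bases upstream of genes. For ACACAC the shares were 25.2%, 12.1% and 12.5%. The shorter X-box arm GTTNCC or its complement occurred 2 times in the region, and 27.8% of IDR windows held it against 24.4% of the others. In the form of its complement, GGCAAC, the arm lay across the summit. In spite of the repeats, every one of the 164 stretches of 36 bases in the region occurs at no other place in the reference genome.

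The score of the region was 274 in the pooled list, 107 in replicate 1 and 171 in replicate 2. It ranked 66 of 941 in the IDR list and, being the same region, 66 of 13472 in the pooled list. In replicate 1 its rank was 108 of 10468 and in replicate 2 it was 42 of 20425, the upper 1.03% and 0.206% of those lists. Both replicates held it far above their medians of 25.1 and 22.9. The lowest region of the IDR list by pooled score was also above both medians, at 48.5 and 46.6. Not every IDR region was: that at rank 714 scored 17.0 in replicate 2. The summits at daf-19 were close together too, at 226 bp upstream of transcript a in replicate 1, 238 bp in replicate 2 and 230 bp in the pooled data. The -log10 q-value of its region was 2.36 in replicate 1 and 2.11 in replicate 2, the ceiling of each list, which 114 and 841 regions reached. In the pooled list it was 1.64, and 928 of the 941 IDR regions had a higher one. Of all 13472 pooled regions, 1190 had a higher one.

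Replicate 2 scored the daf-19 region higher than replicate 1 did, by a ratio of 1.60. Over the 935 IDR regions with a summit of each replicate within 200 bp the median ratio was 1.23, with quartiles of 1.02 and 1.51. A higher ratio was found for 177 of those regions. The gene therefore lies toward the side that favours replicate 2, within the spread of the other regions.

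**Figure D1:**
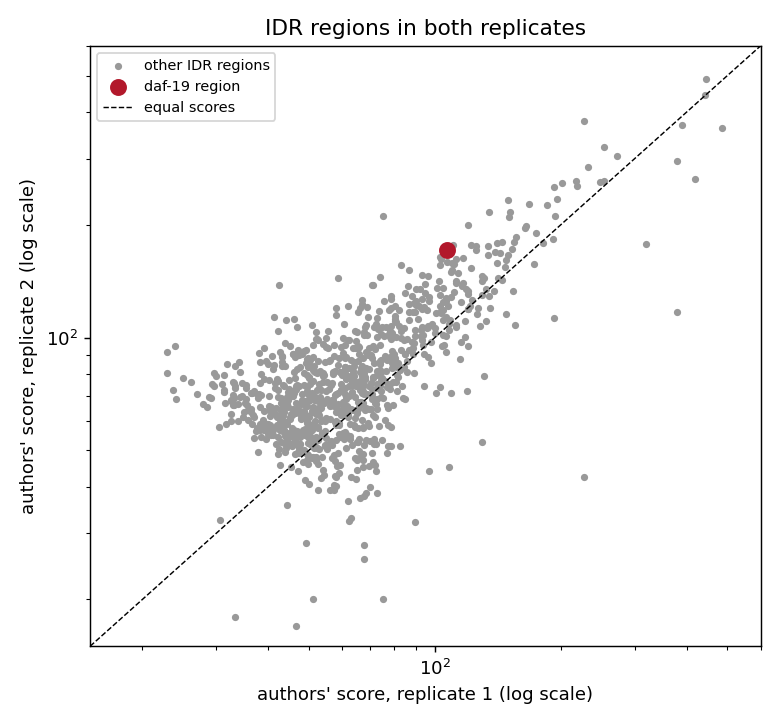
Authors' score in replicate 1 (x axis, log scale) and replicate 2 (y axis, log scale) for the 935 IDR regions with a summit of each replicate within 200 bp. The daf-19 region, in red at 107 and 171, lies above the dashed line of equal scores and toward the upper end of the cloud.

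Most of the regions that scored above daf-19 lay at small RNA genes or on mitochondrial DNA. Among the 696 nuclear IDR regions over 200 bp from any annotated tRNA, snoRNA, snRNA, miRNA or rRNA gene its rank was 18. Among the 346 of these within 500 bp of a protein-coding 5' end it was 11. On chromosome II it was 7 of 129. Of the 487 protein-coding genes with an IDR summit within 500 bp of a 5' end, daf-19 was number 22 by score.

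The promoter regions next to it in the order of score were named after their values were seen. Directly above came rpl-35, which encodes a protein of the large ribosomal subunit, with a pooled score of 276, and replicate scores of 111 and 157. The next above were ears-2, a glutamyl-tRNA synthetase gene (277, with 131 and 144), and cdc-48.1, an AAA ATPase gene (294, with 141 and 158). Below it came C16C10.4 (265, with 148 and 116), W03C9.5 (262, with 103 and 156) and the histone gene his-68 (260, with 114 and 148). The replicates did not give these genes 1 order: replicate 1 scored daf-19 below rpl-35, ears-2, cdc-48.1, C16C10.4 and his-68, and replicate 2 scored it above all of them. In the IDR list as a whole the regions at ranks 65 and 67 scored 276 and 273, and the lowest region kept scored 95.2 against 95.0 for the highest one left out.

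**Figure D2:**
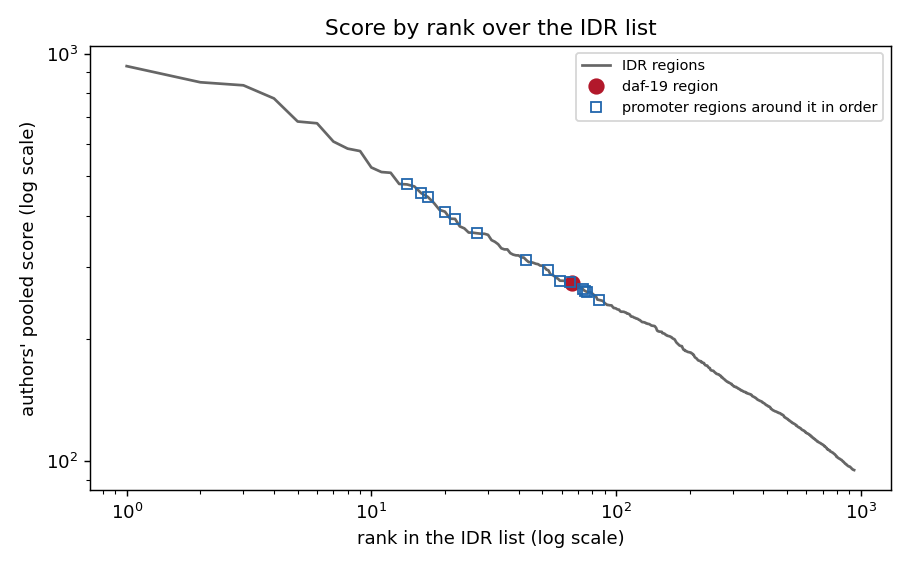
Authors' pooled score (y axis, log scale) against rank (x axis, log scale) for the 935 IDR regions paired in both replicates. The daf-19 region, in red, stood at rank 66 with a score of 274, and the blue squares are the 10 promoter regions above it and the 4 below it.

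The summit lay at a distance from the gene that other SYD-9-GFP regions share. Of 923 nuclear IDR summits, 403 had their nearest protein-coding 5' end within 500 bp, and 354 of these lay upstream of it. At 150 to 300 bp upstream lay 118 summits, that of daf-19 among them. No such counts are given here for the other pooled summits, so these numbers have no background beside them.

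**Figure D3:**
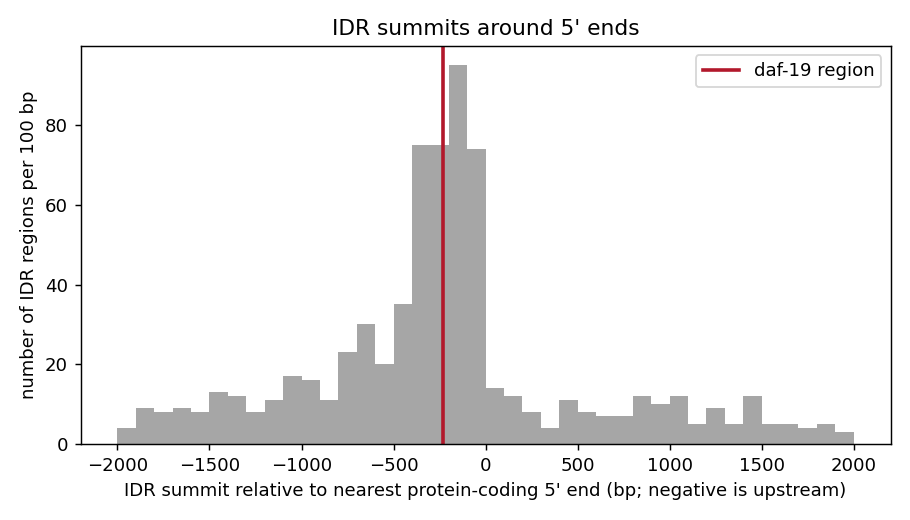
Number of IDR regions (y axis) by the distance of the summit from the nearest protein-coding 5' end, in bins of 100 bp (x axis, negative is upstream). Summits gather in the 500 bp upstream of 5' ends, and the red line marks the daf-19 region at 230 bp upstream.

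A weaker region stood directly beside the reproducible one, further from the gene. In the pooled list it covered chrII:10169552-10170011, had its summit 436 bp upstream of transcript a and scored 82.4, rank 1284, below the IDR threshold. Its score was 31.0 in replicate 1 and 52.5 in replicate 2, where its summits lay 446 and 438 bp upstream. Its pooled -log10 q-value was 1.56, against 1.64 for the reproducible region. The summits of the pair were 206 bp apart in the pooled list and the regions shared 104 bases. The bases around this second summit, chrII:10169732-10169832 on the minus strand, with the 21 around the summit in capitals, are shown for comparison with the stronger one.
Second upstream region: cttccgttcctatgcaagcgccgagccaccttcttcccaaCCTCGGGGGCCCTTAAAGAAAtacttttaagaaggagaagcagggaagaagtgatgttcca
The IDR region was narrow, at 199 bp against a median of 460 bp, and 49 of the 941 IDR regions were as narrow or narrower. Another pooled region overlapped 25 of those 49 (51.0%) and 346 of all 941 (36.8%). In replicate 1 the region at the same summit was 456 bp wide, the median width of that list, and took in the X-box match. With so common a width, the overlap does not show how far the signal itself reached. In replicate 2 the region was 126 bp wide and did not take in the match.

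Inside the gene no region came near the score of the upstream one. The pooled list held 8 regions within the gene or 5000 bp of it, replicate 1 held 6 and replicate 2 held 12, and 1 passed the IDR threshold. The strongest was 3.32, 3.38 and 3.26 times the next one in the pooled, replicate 1 and replicate 2 lists. That next one was the weaker upstream region in the pooled list and in replicate 2. In replicate 1 it was an intron summit near the start of transcript d. The highest scores inside the gene were 54.1 in the pooled list, 31.7 in replicate 1 and 45.9 in replicate 2. Of the 8 pooled summits 3 lay upstream of daf-19, 3 in its introns, 1 in a coding exon and 1 in the 3' UTR. The pooled and replicate lists are labelled as holding peaks and background alike, and their low regions are given as listed.

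At the internal starts no region passed the IDR threshold. The pooled list and both replicate lists held a weak summit within 500 bp of the start of transcript d, replicate 1 alone held one for transcript e, and no list held one for transcript c. The pooled summit at 10164570 lay 118 bp upstream of the 5' end of transcript d, in an intron of transcript b, and scored 46.2, rank 6215. Replicate 1 had its counterpart 116 bp upstream with a score of 31.7, rank 2412. The nearest summit of replicate 2 lay 213 bp downstream of that 5' end with a score of 21.9, rank 11321, too far from the pooled summit to be paired with it. The bases around the pooled summit, chrII:10164520-10164620 on the minus strand, with the 21 around it in capitals, show the only pooled candidate within 500 bp of an internal daf-19 start.
Upstream of transcript d: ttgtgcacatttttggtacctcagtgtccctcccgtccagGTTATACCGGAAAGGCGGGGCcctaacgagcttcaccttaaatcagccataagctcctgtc
For transcript e, the nearest pooled summit lay 587 bp downstream of the 5' end (score 48.0), with replicate summits 397 and 579 bp downstream (23.6 and 25.6). For transcript c it lay 894 bp downstream with a score of 34.9, rank 13251 of 13472. Which of the shorter transcripts encodes DAF-19C was not established here. The nearest summit to the 5' end of transcript c was 1506 bp upstream in replicate 1 (23.6) and 567 bp downstream in replicate 2 (17.2, rank 19773).

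The remaining pooled candidates lay in the 3' part of the gene and in a neighbour. A coding exon held a summit at 10159357 that scored 54.1 in the pooled list and 45.9 in replicate 2, where it ranked 1483, while the nearest summit of replicate 1 was at 10159136 and scored 22.7. The 3' UTR held a summit at 10157654 (42.0 pooled, 31.8 in replicate 2), and replicate 1 listed none there. The candidate farthest upstream, at 10173389, lay inside wbp-11 and scored 42.6, with 22.6 in replicate 1 and 19.7 in replicate 2. The pooled median was 44.8, near the scores in the 3' UTR and in wbp-11. The summit in the coding exon was above it, and in replicate 2 it was in the upper 7.26% of the list.

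**Figure D4:**
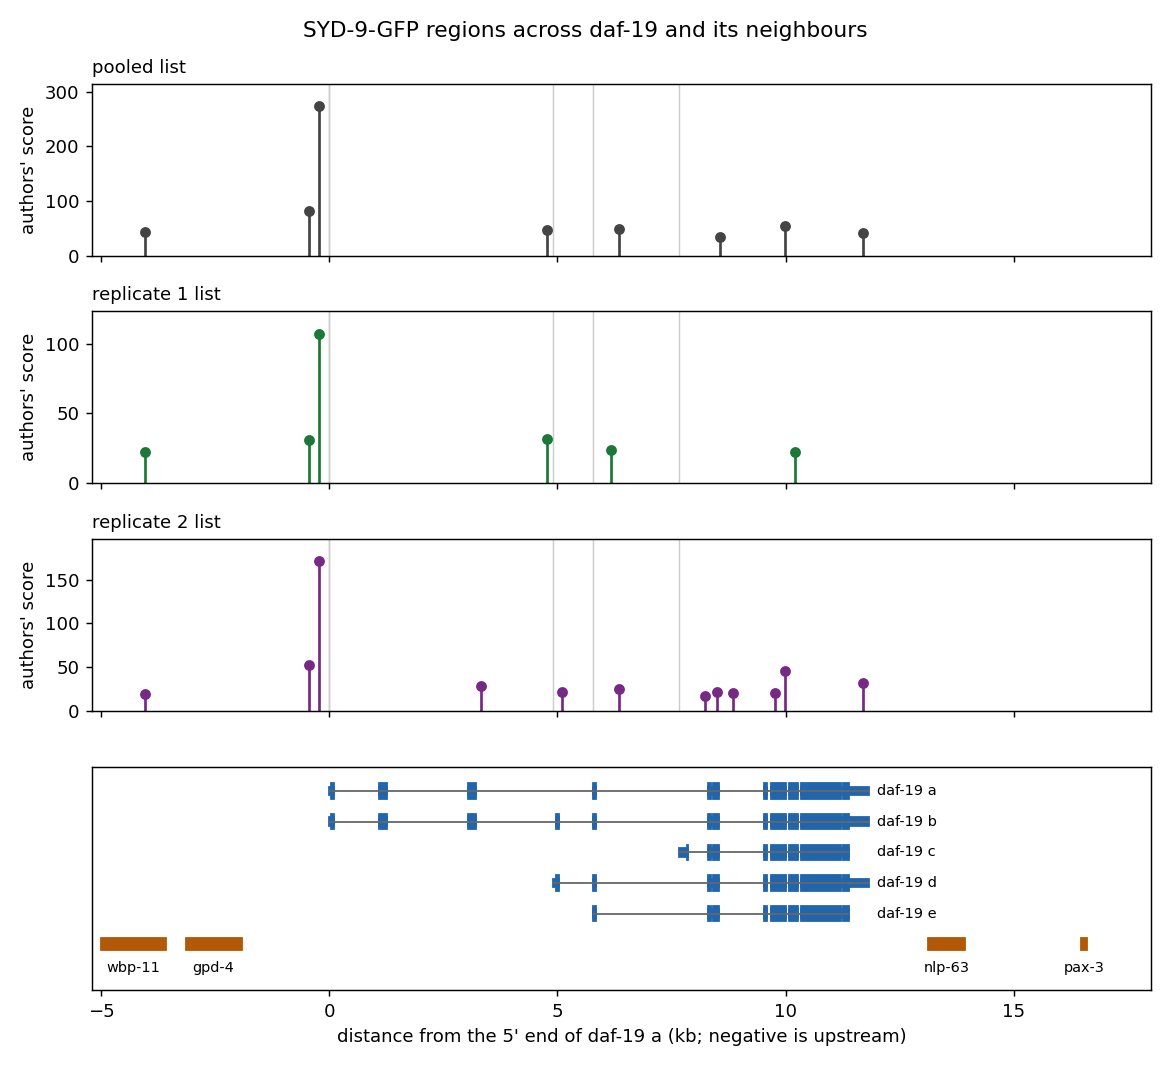
Authors' score of each region (y axis, linear from 0, own scale in each panel) against the distance of its summit from the 5' end of daf-19 transcript a, in kb (x axis, direction of transcription to the right), for the pooled list and both replicates. Grey lines mark the annotated 5' ends, boxes in the lowest panel are exons of the 5 transcripts (coding parts taller) and orange boxes are neighbouring genes, and the tallest stem in every panel stands 226 to 238 bp upstream of transcripts a and b.

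The neighbours of daf-19 do not lie closer to the region. The 5' end of gpd-4, which encodes the glycolytic enzyme glyceraldehyde-3-phosphate dehydrogenase, was 1692 bp from the summit, and that of wbp-11 was 3347 bp away. On the other side of the gene, the neuropeptide-like gene nlp-63 and the paired-box gene pax-3 start 14170 and 23006 bp from the summit. A piRNA gene, 21ur-13428, lies within daf-19 at 10163506, 6070 bp from the summit. With a rule of 500 bp from a 5' end, daf-19 was the only protein-coding gene to which this region was assigned. Of the 487 genes with an IDR summit this close, 116 have 5' ends at least 1000 bp apart. Among these, the summit was nearest the outermost 5' end, or one within 1000 bp of it, in 75 (64.7%), and daf-19 is one of these.

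Pooled candidates at the locus and around it were also counted. The gene and 50 kb on both sides held 15 pooled regions, of which 2 were in the IDR list. The 8 at daf-19 described above are among the 15. Apart from the daf-19 IDR region, they had a median score of 47.1. The highest of the rest, which was also the nearest other IDR region, scored 109 with its summit 32897 bp away. The daf-19 region was 2.51 times as high. With 8 pooled candidates in a window of 21.8 kb, the locus had 0.367 per kb, more than 95.0% of protein-coding genes with the same margins. The median was 0.0914 per kb over all genes and 0.136 per kb over the 706 genes at least as long as daf-19. The 8 include the IDR region for which the gene was chosen and the region that overlaps it, so nothing is read from this density.

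To place daf-19 among all genes, the share with an IDR region was counted by each rule, and since the gene was chosen with its region known, nothing is read from its own place among them. An IDR summit lay in the gene or within 5000 bp of it for 2252 of 19973 protein-coding genes (11.3%), and for 123 of the 706 genes at least as long as daf-19 (17.4%). Within 500 bp of a 5' end, 487 genes (2.44%) had one, and 4080 (20.4%) had a pooled candidate.

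A list of 41 cilium genes, which carry or are thought to carry an X-box, was counted in the same way. Of these, 0 had an IDR summit within 500 bp of a 5' end, beside 2.44% of all genes. At that share about 1 gene of 41 would be counted, so the count is near the background and is not a result about these genes. A pooled candidate was near 11 of them (26.8%, beside 20.4% of all genes), with a median score of 43.9 beside 48.3 over all genes with a candidate. The highest belonged to mks-5, a gene of the ciliary transition zone, with a pooled score of 68.1 and replicate scores of 42.1 and 19.3. Next came dyf-5, a kinase gene of cilia (63.8, with 50.6 in replicate 2 and no region of replicate 1 within 200 bp), osm-6, which encodes a subunit of the intraflagellar transport complex (59.0, with 24.7 and 38.3), and hyls-1, a centriole gene needed for cilia (50.4, with 32.9 and 17.7). All were under the lowest IDR score of 95.2.

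Of 30 other genes of dauer formation 2 (6.67%) had an IDR summit within 500 bp of a 5' end, beside 2.44% of all genes. These were hsp-90, also known as daf-21, which encodes the Hsp90 chaperone (135, with 68.4 and 64.8 in the replicates, 387 bp from the 5' end), and din-1, which encodes a corepressor of the nuclear receptor DAF-12 (115, with 57.8 and 59.6, 164 bp away). Pooled candidates were near 9 of the 30 (30%, beside 20.4%), among them daf-1, a TGF-beta receptor gene (70.1, with 25.2 and 40.6), and unc-31, a gene of dense-core vesicle release (50.4, with 28.0 and 20.8). The median score of the 9 was 45.9. Both counts are small, and that of IDR summits was 1 within 250 bp of a 5' end and 1 with the upper 470 regions. Neither share is read as a result about these genes. None of the dauer genes reached the score of daf-19, but daf-19 was chosen for that score, so nothing is read from this.

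The genes whose scores were most like those of daf-19 shared its region or had their region at a small RNA gene. Likeness was the Euclidean distance of log2 scores in the pooled, replicate 1 and replicate 2 lists, over 2242 genes with an IDR region in the gene or within 5000 bp and a summit of each replicate. At a distance of 0 stood gpd-4 and wbp-11, which hold the same region. Next, at 0.09, came fbxl-4 and ttr-6 on the X chromosome, together with hic-1, all through 1 region that scored 287, 110 and 177, with a small RNA gene at most 200 bp from its summit. With 2 replicates and a pooled list made from both, this measure describes the size of the scores and little else.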

How the data were processed

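The ChIP-seq region lists of both replicates were used as deposited, in build ce11, and the ce10 versions were left out because the annotation is ce11. The deposited score (signal value) is the authors' and its scale is not stated, and the deposited -log10 q-value follows the layout of the narrowPeak format. Which program called the regions, and at which IDR threshold, is not given in the sources used here. Regions were called per replicate and on pooled replicates, per the labels' file notes. Every one of the 941 IDR regions had the same summit and score in the pooled list, where they were the 941 highest.

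The summit is the start plus the offset column, written 1-based. Genes and 5' ends were those of Ensembl release 115, and symbols of both gene lists matched for all members. Regions of different lists were paired by the nearest summit within 200 bp. Motifs were searched on both strands. The assignment of summits to genes was tested on simulated data. Python 3.11.15, pandas 2.3.3 and numpy 2.4.6 were used. The gene, the 2 lists and the rules were chosen with earlier results of these data known. Named genes are daf-19, its neighbours within 5000 bp, list members with an IDR summit near a 5' end or among the 4 highest candidates of their list, and the 4 genes most like daf-19 with those tied with them; the promoter regions next to it in order, and the list members in the closing section, were named after their values were seen. No significance test was made, and no interval that needs read depth was computed, since depth is unknown. The alternatives were other distances, the upper 470 IDR regions, overlap in place of the summit, other pairing distances and each replicate alone.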

Additional observations from a re-analysis of the deposited data

How the results depend on the processing

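The count of 1 region at daf-19 stayed at 1 with 2000 or 10000 bp around the gene, among the upper 470 IDR regions, by overlap, and with the 941 highest regions of either replicate alone. The ranks of this region and its distance from the gene, given above, already fix that it is kept. The counts are therefore no support for it and show only that no further region was counted. The score of that region was 107 to 171 with a single replicate, on the scale of that replicate's list, against 274 in the pooled list. Pairing within 100 or 500 bp gave the same replicate regions. The share of genes with an IDR region was 6.52% with 2000 bp, 18.3% with 10000 bp and 5.95% with the upper 470 regions, and 10.8% to 11.5% with 1 replicate. Near 5' ends it was 1.41% at 250 bp, 3.42% at 1000 bp and 1.18% with the upper 470 regions, and 2.12% to 2.55% with 1 replicate. The count of cilium genes stayed at 0 under every alternative run. Of the dauer genes 1 was counted at 250 bp (din-1), 3 at 1000 bp (with tax-4 added) and 1 with the upper 470 regions (hsp-90), and 2 with either replicate alone. No paired analysis was possible because the series has 1 group. The lists give no read counts, so neither the depth behind a score nor its counting error can be given.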

Other observations

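By the wider rule, an IDR summit in the gene or within 5000 bp of it, 6 of the 41 cilium genes (14.6%) and 7 of the 30 dauer genes (23.3%) were counted, beside 11.3% of all protein-coding genes. The share was 17.4% for the 706 genes at least as long as daf-19. Gene length was not matched, so these shares are not read as a result about either list. The cilium genes were che-2, che-13, dyf-11, nphp-4, mksr-1 and tmem-231, and all their summits lay over 500 bp from their 5' ends. The highest, at che-2 (260, with 104 and 162 in the replicates), lay 8427 bp from the gene's nearest 5' end and within 200 bp of a tRNA gene. It was 103 bp from the 5' end of another protein-coding gene. The summits at che-13 (192) and tmem-231 (131) lay within 200 bp of snoRNA genes. The dauer genes were hsp-90, din-1, daf-5, daf-16, ncr-2, tax-4 and unc-31. The region at daf-16, the FOXO factor gene, scored 108 with its summit 1374 bp from the nearest 5' end, and that at tax-4, a channel subunit gene of sensory neurons, scored 116 at 933 bp. The strongest region at din-1 by this rule scored 159, at 739 bp.

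The pooled -log10 q-value of the daf-19 region was 1.64, and 928 of the 941 IDR regions had a higher one, although 65 had a higher score. Over the 49 IDR regions as narrow or narrower the median was 1.80, with a range of 1.55 to 2.02, and over the 892 wider ones it was 1.87. In both replicate lists the daf-19 region was at the ceiling.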
